A study of Homo sapiens with 6 samples.

Results

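The 10 keratin genes KRT5, KRT6A, KRT7, KRT8, KRT15, KRT17, KRT18, KRT19, KRT80 and KRT81 were taken by symbol from an RNA sequencing table of 33392 genes. All 10 had a row. The cells are labelled HK-2, an established, immortalised line of human proximal tubule epithelium; all 6 libraries of the table come from cells given TGF-β1, a profibrotic cytokine, and carry a 48 h label. In 3 libraries the cells had received an siRNA against the protein kinase DYRK2 (siDYRK2), and in 3 a scramble siRNA; the labels give neither the siRNA sequences nor the TGF-β1 dose. The study concerns DYRK2 in renal fibrosis, so the comparison asks how keratin transcripts differ with DYRK2 silenced under TGF-β1; cells without TGF-β1 were not analysed here. Of the 10 genes, 6 had a mean of at least 0.5 FPKM (fragments per transcript length and library size) over the libraries and entered the test. Of these 6, 2 were higher in siDYRK2 libraries (KRT7 and KRT81), 2 were lower (KRT18 and KRT19) and 2 did not pass the test (KRT8 and KRT80). The test was limma on log2(FPKM + 0.5) with Benjamini-Hochberg adjustment over 15121 genes at 0.05, by which 38.3% of all genes tested passed, 20.4% higher and 17.9% lower. Among the 6 tested members, the values of the 2 groups did not overlap for the same 4, KRT7 and KRT81 above and KRT18 and KRT19 below, against a background of 51.7% of genes tested, 27.4% above and 24.3% below. Below the filter they also did not overlap for KRT15 (below) and KRT17 (above), but the share among all genes below the filter was not computed.

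Keratins are the intermediate filament proteins of epithelial cells. Each filament is built from heterodimers of an acidic type I keratin with a basic or neutral type II keratin, and unpaired keratin protein is degraded. KRT8 and KRT18 are the first pair of simple epithelia, joined by KRT7 and KRT19 in ductal and many glandular epithelia, whereas KRT5, KRT6A, KRT15 and KRT17 belong to basal, stratified or activated epithelia. In the kidney the collecting duct carries KRT7 and KRT19, and injured tubules raise several of the simple keratins.

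DYRK2 was 1.45, 1.54 and 1.49 FPKM in siDYRK2 libraries, against 5.84, 6.06 and 5.96 FPKM in scramble libraries, or 25.1% of the scramble mean (log2 difference −1.69, SE 0.0513, limma adjusted p = 2.0e-06). FPKM summed to between 252318 and 255378 per library. The 7 general epithelial markers summed to 220.5 to 237 FPKM in siDYRK2 and 283 to 291 FPKM in scramble libraries. The members KRT8 and KRT18 are part of that sum. The other markers averaged, in siDYRK2 and scramble libraries, 62.1 and 81.5 FPKM (CLDN1), 18.6 and 16.4 FPKM (ITGB4), 8.70 and 10.0 FPKM (EPCAM), 2.68 and 4.87 FPKM (CLDN4) and 1.17 and 2.97 FPKM (CDH1). However, 9 of the 11 renal and proximal tubule markers with a row stayed under 0.5 FPKM in every library, PAX8 and CUBN among them. NKX2-1, a factor of lung and thyroid epithelium, averaged 23.4 ± 0.472 FPKM in siDYRK2 and 26.5 ± 0.895 FPKM in scramble libraries (SD, n = 3 each), with SFTPB, a surfactant gene, at 3.10 to 4.93 FPKM over the 6 libraries. These marker levels go against the proximal tubule origin that the label names, in both groups, so the values below are those of an epithelial line labelled HK-2 and are not shown to be those of proximal tubule cells. The fibroblast markers summed to 0.640 to 0.810 FPKM in siDYRK2 and 0.370 to 0.420 FPKM in scramble libraries, and the endothelial markers to no more than 0.0700 FPKM in any library. The part of these markers in the keratin differences was not tested. Nothing in the labels states that the replicates are separate cultures, and the spread that the p-values rest on may therefore be technical. In bulk RNA, fewer cells that express a keratin and less of its transcript per cell cannot be told apart.

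The levels spanned a wide range, and 5 members carried nearly all keratin transcript. On the FPKM scale, which is per length, their order was the same in both groups: KRT7, KRT19, KRT18, KRT80 and KRT8. Neighbours in that order did not overlap between their ranges over 3 libraries in either group. KRT81 lay far below at 0.720 to 1.91 FPKM, and KRT5, KRT6A, KRT15 and KRT17 stayed below 1 FPKM in every library. The 10 members together made up 0.330% to 0.346% of the summed FPKM of a siDYRK2 library and 0.309% to 0.319% of that of a scramble library.

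KRT7, the type II keratin of ductal epithelia, was the most abundant keratin and rose with siDYRK2. It measured 558, 544 and 524 FPKM in siDYRK2 libraries, against 377, 383 and 385 FPKM in scramble libraries. The groups did not overlap, and the gap between them was many times the spread within either. The means of 542 ± 17.4 and 382 ± 4.13 FPKM (SD, n = 3 each) give a 1.42-fold higher level, with a log2 difference of 0.50 (SE 0.0327, limma adjusted p = 5.2e-05). Of all genes tested, 9.76% differed by at least as much in either direction. KRT7 alone took 62.4% to 63.6% of the members' summed FPKM in siDYRK2 libraries and 47.7% to 48.6% in scramble libraries. KRT7-AS, annotated within KRT7 on the opposite strand, averaged 15.97 ± 1.65 FPKM in siDYRK2 and 10.9 ± 0.307 FPKM in scramble libraries (SD, n = 3 each; log2 difference 0.53, limma adjusted p = 0.0012). Whether the counting used strand is not given in the sources used here, so reads of KRT7 and KRT7-AS in their overlap cannot be told apart; 7.67% of the 100-base windows of the KRT7 transcript also occur, on the other strand, in KRT7-AS. The ratio of KRT7 to KRT7-AS overlapped between the groups, at 29.6 to 38.8 in siDYRK2 and 34.2 to 36.3 in scramble libraries.

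**Figure D1:**
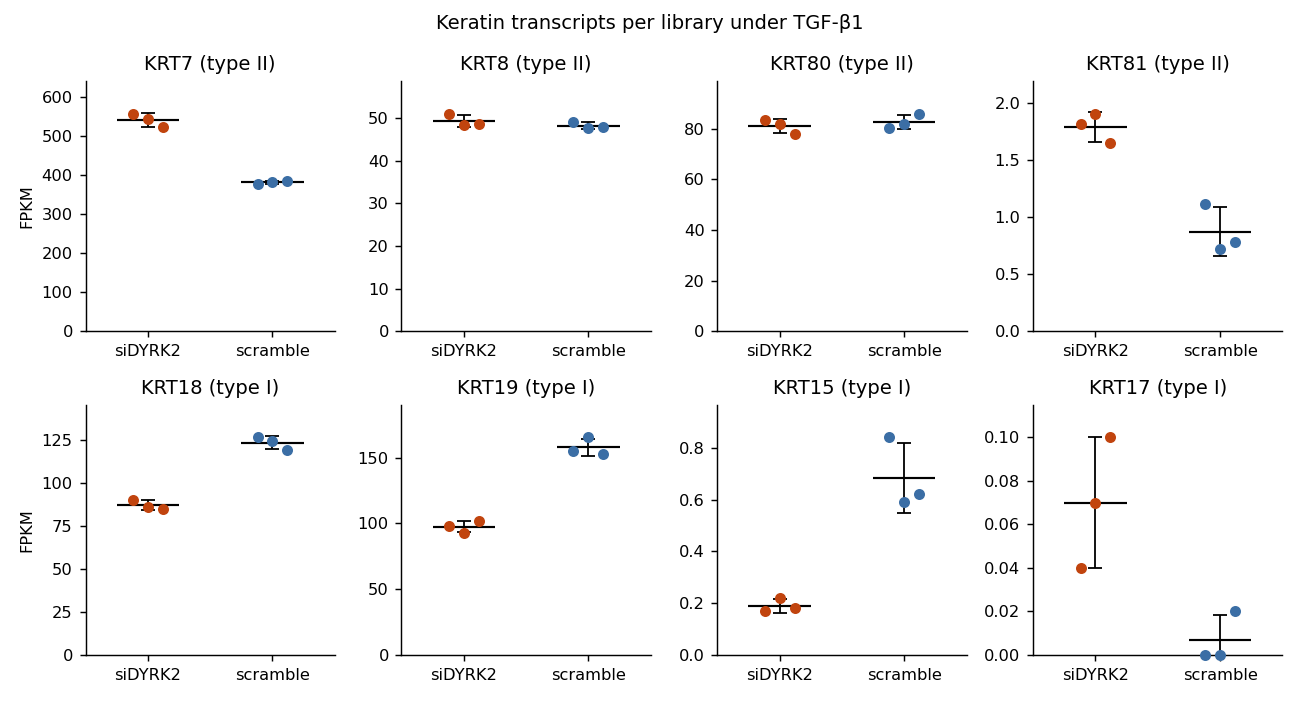
FPKM of 8 keratin genes (y axis, from 0) in each library, siDYRK2 left and scramble right; points are libraries, the bar is the mean and the whiskers are the SD (n = 3). KRT7 and KRT81 lie higher and KRT18, KRT19 and KRT15 lower with siDYRK2, KRT8 and KRT80 overlap, and KRT17 stays at or under 0.1 FPKM.

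KRT8, the type II keratin that pairs with KRT18, did not pass the test. It measured 51.1, 48.5 and 48.7 FPKM in siDYRK2 libraries, against 49.1, 47.6 and 47.95 FPKM in scramble libraries, and the groups overlapped. The log2 difference was 0.03, with a 95% interval from −0.04 to 0.11 (limma adjusted p = 0.45). KRT80, a type II keratin expressed in many epithelia, gave a like picture at 83.3, 81.7 and 77.9 FPKM in siDYRK2 and 80.4, 81.9 and 85.9 FPKM in scramble libraries. Its log2 difference of −0.03 had a 95% interval from −0.12 to 0.06 (limma adjusted p = 0.57). For both genes the interval leaves out a change of the size seen for KRT7.

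KRT8 has many processed pseudogenes, whose reads can be mistaken for its own. The most abundant, KRT8P12 (GRCh38 chromosome 3, 160565447 to 160569248, plus strand), averaged 5.51 ± 0.172 FPKM in siDYRK2 and 7.73 ± 1.16 FPKM in scramble libraries (SD, n = 3 each) and fell by 0.45 on the log2 scale (limma adjusted p = 0.0086). The parent and its pseudogenes KRT8P12 and KRT8P3 summed to 58.2, 55.6 and 55.6 FPKM in siDYRK2 libraries, against 59.8, 56.3 and 56.5 FPKM in scramble libraries. These sums overlapped between the groups, as KRT8 alone did.

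KRT81, a type II keratin of the hair cortex, was low but higher with siDYRK2. It measured 1.82, 1.91 and 1.65 FPKM in siDYRK2 libraries, against 1.12, 0.720 and 0.780 FPKM in scramble libraries. The groups did not overlap, and scramble replicate 1 lay above the other scramble libraries. Mean FPKM was 2.05-fold higher, and the log2(FPKM + 0.5) difference, which understates the change of low genes, was 0.75 (SE 0.122, limma adjusted p = 0.0029). It was 0.98 with a pseudocount of 0.1. Of all genes tested, 3.28% differed by at least as much. The neighbouring hair keratins are near-copies: over aligned coding bases KRT81 is 93.4% identical to KRT86 and 93.3% to KRT83, and 30.3% of the 100-base windows of its transcript occur unchanged in another gene's transcript, nearly all in KRT86. Bases 728 to 787 of the KRT81 and KRT86 coding sequences and 743 to 802 of that of KRT83, the middle of KRT81, are printed from GENCODE v29 transcripts (GRCh38) to show this, with capitals at the bases that differ from KRT81.
KRT81: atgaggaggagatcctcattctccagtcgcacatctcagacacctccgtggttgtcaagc
KRT86: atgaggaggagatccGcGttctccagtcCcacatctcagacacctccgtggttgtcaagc
KRT83: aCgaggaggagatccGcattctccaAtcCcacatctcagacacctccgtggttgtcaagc
Reads from such stretches can be split between the genes, so the 3 were also summed. KRT81, KRT86 and KRT83 together gave 3.10, 3.36 and 2.87 FPKM in siDYRK2 libraries, against 2.06, 1.65 and 1.86 FPKM in scramble libraries, without overlap. KRT86 by itself was 1.13, 1.34 and 1.14 FPKM in siDYRK2 libraries, against 0.940, 0.930 and 1.02 FPKM in scramble libraries, and its difference missed the threshold (limma adjusted p = 0.091).

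Both tested type I members fell. KRT18, the partner of KRT8, measured 90.4, 86.3 and 85.1 FPKM in siDYRK2 libraries, against 126.5, 124 and 119 FPKM in scramble libraries. The groups did not overlap, and the SD was 3.16% of the mean in siDYRK2 and 3.0% in scramble libraries. The log2 difference was −0.50 (SE 0.0359, limma adjusted p = 8.1e-05), a mean 1.41-fold lower; 10.1% of all genes tested differed by at least as much. The annotated ends of KRT8 and KRT18 overlap by about 1.08 kb on opposite strands, and 16.6% of the 100-base windows of the KRT18 transcript also lie in a KRT8 transcript, so that reads there cannot be told apart without strand.

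KRT19, a type I keratin of ducts and of basal and progenitor-like cells that lacks the tail domain of other keratins, showed the largest fall among the tested members. It measured 98.0, 93.0 and 102 FPKM in siDYRK2 libraries, against 155, 165 and 152 FPKM in scramble libraries. No siDYRK2 library came near the lowest scramble library. Mean FPKM was 1.62-fold lower, with a log2 difference of −0.69 (SE 0.0450, limma adjusted p = 5.4e-05), a size that 4.15% of all genes tested reached. No 100-base window of the KRT19 transcript occurs in another gene's transcript, so its values do not rest on shared exact sequence of that length. KRT18 and KRT19 are 65.3% identical to each other over aligned coding bases.

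**Figure D2:**
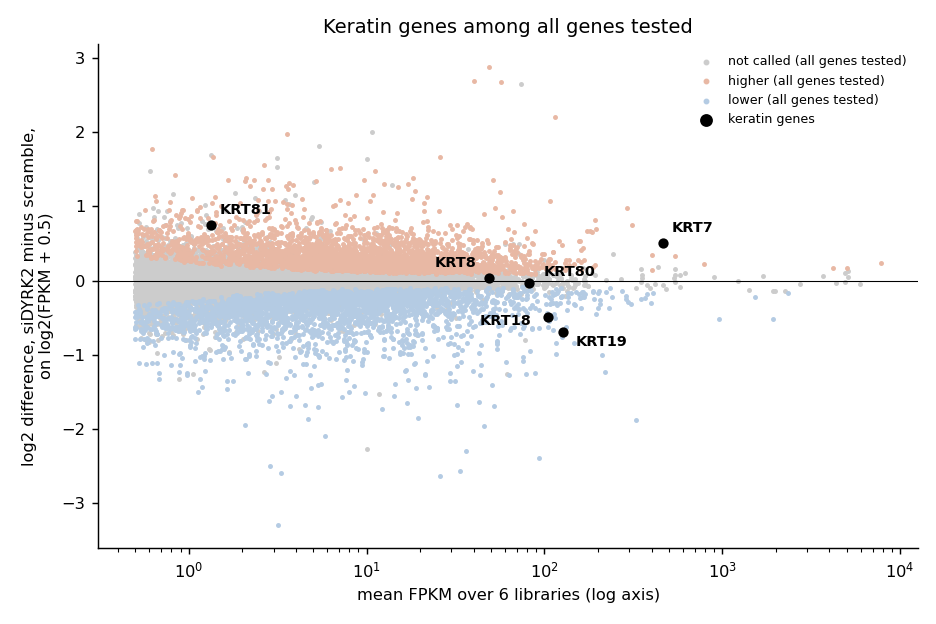
Mean FPKM over 6 libraries (x, log axis) against the log2(FPKM + 0.5) difference, siDYRK2 minus scramble (y), for the 15121 genes tested, coloured by limma call, with the 6 tested keratin genes in black. KRT7 lies at 0.50, KRT81 at 0.75, KRT18 at −0.50 and KRT19 at −0.69, while KRT8 and KRT80 lie at the zero line.

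The other 4 members were below the filter on low values. KRT15, a type I keratin of basal progenitor cells, was listed at 0.170, 0.220 and 0.180 FPKM in siDYRK2 libraries, against 0.840, 0.590 and 0.620 FPKM in scramble libraries. Every siDYRK2 library lay well below the lowest scramble library. An exact permutation test over the libraries (two-sided) returned p = 0.1, below which 3 against 3 cannot go. When low values were not filtered the log2 difference was −0.77 (limma adjusted p = 0.0069). KRT17, a type I keratin induced in activated and wounded epithelia, was listed at 0.04, 0.07 and 0.1 FPKM in siDYRK2 libraries and at 0, 0 and 0.02 FPKM in scramble libraries. Without the filter its log2 difference was 0.17 (limma adjusted p = 0.068). KRT5, the type II keratin of basal cells, stayed at or under 0.0300 FPKM in every library, and KRT6A, a type II keratin of activated keratinocytes, was listed at 0 in all but 1 library, which had 0.0100 FPKM. These values are close to the last decimal of the table, and the depth behind them is unknown.

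The balance of type II to type I keratin transcripts shifted with these differences. Summed over the type II members, FPKM was 694.5, 676 and 652 in siDYRK2 libraries, against 508, 514 and 519.6 in scramble libraries. Summed over the type I members, it was 189, 179.6 and 187 in siDYRK2 libraries, against 283, 290.2 and 272 in scramble libraries. The ratio of the sums was thus 3.68, 3.77 and 3.48 in siDYRK2 and 1.80, 1.77 and 1.91 in scramble libraries, without overlap. Because KRT7 dominates the type II sum, the ratio was also taken without it, after the values had been seen. It was then 0.722, 0.735 and 0.685 in siDYRK2 libraries, against 0.462, 0.449 and 0.495 in scramble libraries, again without overlap. The total over the 10 members was 859 ± 22.3 FPKM in siDYRK2 and 795 ± 7.33 FPKM in scramble libraries (SD, n = 3 each). Within the KRT8 and KRT18 pair the ratio of KRT8 to KRT18 was 0.565, 0.562 and 0.572 in siDYRK2 libraries, against 0.388, 0.383 and 0.402 in scramble libraries. The ratios restate the differences of the single genes, mainly KRT7, KRT18 and KRT19, and are not separate results. They are descriptions and were not tested, since the members had been chosen with earlier results known.

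**Figure D3:**
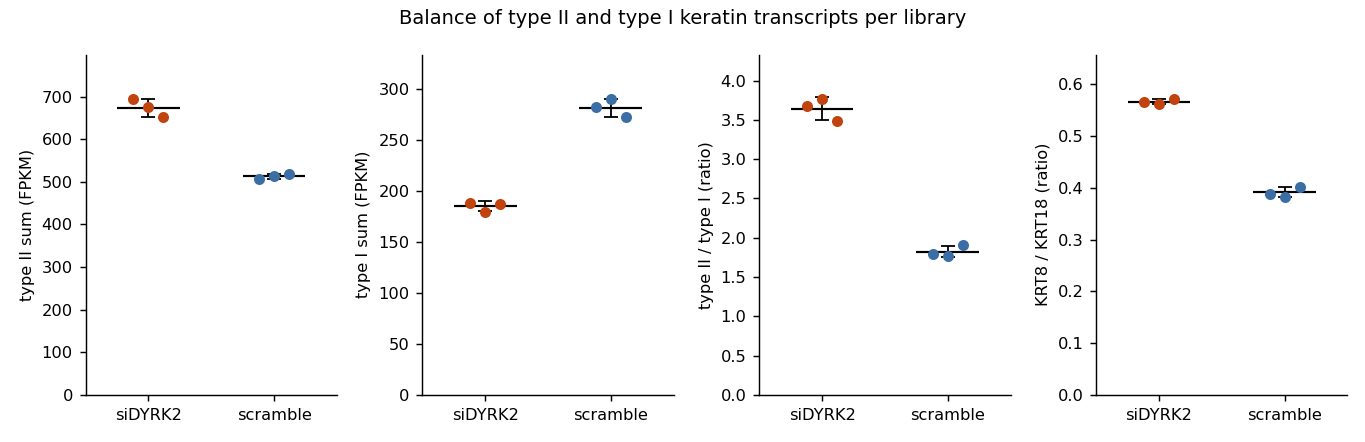
Summed FPKM of the type II members and of the type I members, their ratio, and the ratio of KRT8 to KRT18 (y axes, from 0) in each library, siDYRK2 left and scramble right; bars are means and whiskers SD (n = 3). Both ratios are higher in every siDYRK2 library, with means of 3.64 against 1.82 for type II to type I and 0.566 against 0.391 for KRT8 to KRT18.

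The keratin genes outside the 10 were also read by type, a grouping made after their values were seen. Of the 11 other keratin genes with a row, 3 were tested and 2 of them fell. KRT10, a type I keratin of differentiating epidermis, averaged 6.87 ± 0.377 FPKM in siDYRK2 and 8.82 ± 1.02 FPKM in scramble libraries (SD, n = 3 each; log2 difference −0.33, limma adjusted p = 0.017). That call was lost without siDYRK2 replicate 2 (limma adjusted p = 0.059) and without scramble replicate 2 (0.053). KRT34, a type I hair keratin, was 2.05-fold lower at 0.937 ± 0.185 FPKM in siDYRK2, against 1.92 ± 0.276 FPKM in scramble libraries (SD, n = 3 each; limma adjusted p = 0.0032). With KRT18 and KRT19, all 4 tested type I keratins were lower; among the 5 tested type II keratins 2 were higher, 0 lower and 3 not called, where 17.9% of all genes tested were lower and 20.4% higher. Below the filter, KRT32 (type I) lay lower in every siDYRK2 library and KRT83 and KRT4 (type II) higher. KRT17 (type I) went the other way from the tested type I genes. All 4 were at or under 0.270 FPKM in every library, and the share of such low genes without overlap was not computed.

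By position, the members fall into the type II cluster of chromosome 12, with KRT18 at its end, and the type I cluster of chromosome 17. On GRCh38, KRT80 (chromosome 12, 52168996 to 52192000, minus strand) and KRT7 (chromosome 12, 52232520 to 52252186, plus strand) are 40.5 kb apart, and KRT81 (chromosome 12, 52285913 to 52291534, minus strand) follows 33.7 kb beyond KRT7. Between and around KRT7 and KRT81, KRT7-AS rose, KRT87P, a pseudogene of the hair keratins, averaged 1.13 ± 0.110 FPKM in siDYRK2 and 0.830 ± 0.0656 FPKM in scramble libraries (SD, n = 3 each; limma adjusted p = 0.042), and KRT86 lay higher in every siDYRK2 library without passing the test. The KRT87P call was lost without siDYRK2 replicate 2 or 3 or any 1 scramble replicate (limma adjusted p from 0.058 to 0.11). Not all loci there lay higher. The antisense gene ENSG00000257829, within KRT86 beyond KRT81, was 1.36, 1.88 and 2.13 FPKM in siDYRK2 libraries, against 2.38, 2.04 and 2.14 FPKM in scramble libraries, overlapping and not called (log2 difference −0.24, limma adjusted p = 0.18). ENSG00000257830, between KRT87P and KRT81, was below the filter and overlapped. KRT86 spans KRT87P and KRT81 on the opposite strand. KRT86 (52249300 to 52309163, plus strand) and KRT87P (52250466 to 52258867, minus strand) also overlap the end of KRT7, whose FPKM is far higher. These loci are therefore not independent measurements of each other or of KRT7. KRT80, at the other side of KRT7, was not called.

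At the far end of the cluster KRT8 (chromosome 12, 52897187 to 52949954, minus strand) and KRT18 (chromosome 12, 52948871 to 52952901, plus strand) run head to head; KRT18 passed the test and KRT8 did not. On chromosome 17, KRT15 (41513743 to 41522529, minus strand) and KRT19 (41523617 to 41528308, minus strand) are 1.09 kb apart, and both lay lower in every siDYRK2 library.

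**Figure D4:**
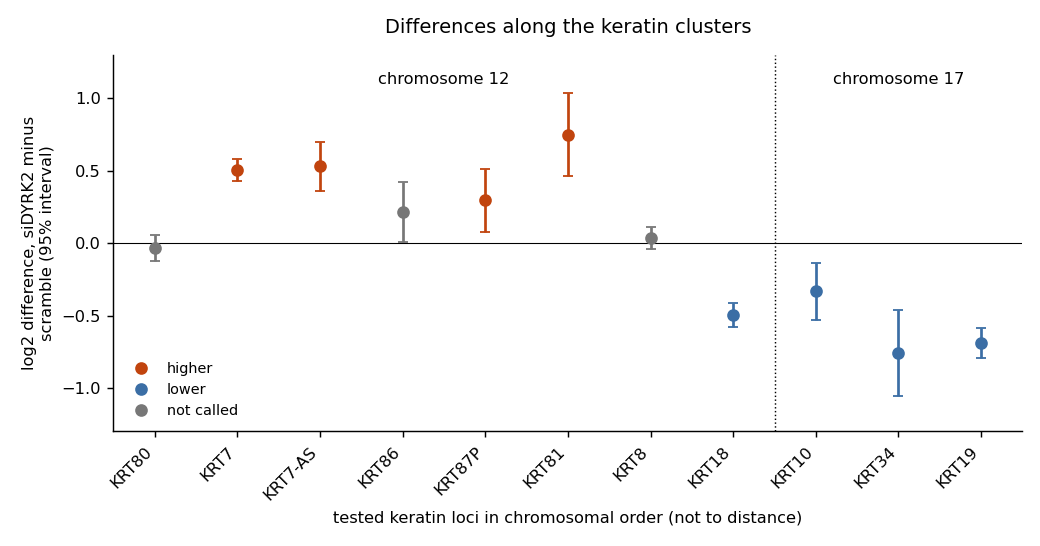
Log2 difference, siDYRK2 minus scramble (y), with its 95% interval from limma for each tested keratin locus of chromosomes 12 and 17 in chromosomal order (x, not to distance), coloured by call. The keratin loci plotted from KRT7 to KRT81 lie above zero, KRT80 and KRT8 at it, and KRT18, KRT10, KRT34 and KRT19 below it.

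Keratin filaments are anchored at desmosomes, which join neighbouring cells, and at hemidesmosomes, which hold the cell to the basement membrane. Of 20 genes listed for these anchors 17 were tested; 7 fell, 2 rose and 8 were not called, where 17.9% of all genes tested fell and 20.4% rose. Their median log2 difference was −0.14, against 0.01 over all genes tested. Desmosomal genes were among both those that fell and those not called. PPL (periplakin), a plakin that binds keratins, averaged 3.55 ± 0.359 FPKM in siDYRK2 and 5.99 ± 0.108 FPKM in scramble libraries (SD, n = 3 each; log2 difference −0.68, limma adjusted p = 4.0e-04). DSC2 (desmocollin 2) fell by 0.58, JUP (plakoglobin) by 0.45 and DSP (desmoplakin), the main keratin anchor of the desmosome, by 0.43 on the log2 scale (limma adjusted p from 7.6e-04 to 0.0024). DSG2 (desmoglein 2) fell by 0.19 and PLEC (plectin) by 0.14, and the PLEC call was lost without siDYRK2 replicate 2, scramble replicate 1 or scramble replicate 2 (limma adjusted p from 0.052 to 0.059). Of other desmosomal genes, DSC3 (desmocollin 3) was 7.17, 7.00 and 6.65 FPKM in siDYRK2 libraries, against 5.67, 6.52 and 6.27 FPKM in scramble libraries, higher without overlap but not called (log2 difference 0.16, limma adjusted p = 0.068). EVPL (envoplakin), PKP2 and PKP4 (plakophilins), at log2 differences of 0.09, −0.06 and −0.07, were not called, and PKP3 fell by 0.12 (limma adjusted p = 0.039). With 1 library left out, 5 to 7 genes of this list fell. PPL, DSC2, JUP, DSP and DSG2 kept their calls under every alternative. Where only 5 fell, without siDYRK2 replicate 2 or scramble replicate 1 or 2, PKP3 had therefore lost its call. The genes of this list that rose were the hemidesmosomal integrin chains ITGA6, by 0.18, and ITGB4, by 0.18; ITGB4 lost its call without siDYRK2 replicate 1 or 2 or scramble replicate 2 or 3, which left 1 member higher. CD151, a tetraspanin of the hemidesmosome, was 63.9 ± 1.07 FPKM in siDYRK2 and 62.5 ± 0.374 FPKM in scramble libraries (SD, n = 3 each) and did not pass the test. PLEC, which fell, is also a keratin linker of the hemidesmosome, so the calls there went both ways. However, PLEC and ITGB4 each lost their call under 4 of 15 alternatives, while ITGA6 kept its call under all 15. COL17A1 and DST, of the hemidesmosome as well, had log2 differences of −0.26 and −0.15 and were not called. COL17A1 lay lower in every siDYRK2 library, while DST overlapped.

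The other intermediate filaments went both ways. Of 13 listed genes 12 had a row and 9 were tested; 5 rose, 2 fell and 2 were not called, where 20.4% of all genes tested rose and 17.9% fell. The median log2 difference was 0.22, against 0.01 over all genes tested. The lamins line the nucleus. LMNB1 (lamin B1) averaged 21.7 ± 0.676 FPKM in siDYRK2 and 13.6 ± 1.38 FPKM in scramble libraries, LMNB2 (lamin B2) 81.9 ± 3.72 FPKM in siDYRK2 and 65.3 ± 0.674 FPKM in scramble libraries, and LMNA (lamins A and C) 68.1 ± 1.69 FPKM in siDYRK2 and 92.3 ± 0.514 FPKM in scramble libraries (SD, n = 3 each). Their log2 differences were 0.66 for LMNB1, 0.32 for LMNB2 and −0.44 for LMNA (limma adjusted p from 5.6e-05 to 6.2e-04). VIM (vimentin), the mesenchymal filament, was 211 ± 5.12 FPKM in siDYRK2 and 234 ± 14.5 FPKM in scramble libraries (SD, n = 3 each). Its small fall (log2 difference −0.15, limma adjusted p = 0.044) lost its call under 11 of 15 alternatives. Among these were quantile normalization (limma adjusted p = 0.19) and leaving out any 1 library other than scramble replicate 3. SYNM (synemin), GFAP and NEFM were higher at 7.73, 1.64 and 1.45 FPKM in siDYRK2 libraries, against 6.55, 1.33 and 0.973 FPKM in scramble libraries, but only 2 to 3 members of this list were still higher when any 1 of the 6 libraries was left out.

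Transcription factors of epithelial identity that passed the test were lower. The 21 listed genes also include the splicing regulators ESRP1 and ESRP2, and 11 were tested. Of these 6 fell, 0 rose and 5 were not called, where 17.9% of all genes tested fell and 20.4% rose. The median log2 difference was −0.34, against 0.01 over all genes tested. ELF3, an ETS factor of simple epithelia, averaged 1.69 ± 0.220 FPKM in siDYRK2 and 3.50 ± 0.123 FPKM in scramble libraries (SD, n = 3 each; log2 difference −0.87, limma adjusted p = 3.1e-04). SOX9, a factor of ducts and of injured tubule cells, was 3.20 ± 0.230 FPKM in siDYRK2 and 6.14 ± 0.273 FPKM in scramble libraries (SD, n = 3 each; limma adjusted p = 8.9e-05). KLF4, a zinc finger factor of epithelial differentiation, fell by 0.61, CEBPB by 0.63, TFAP2A by 0.40 and the pioneer factor FOXA1 by 0.34 on the log2 scale. KLF5 did not pass the test (log2 difference −0.12, limma adjusted p = 0.14) except without scramble replicate 3 (0.022). ESRP1, ESRP2, GRHL1 and TFAP2C, at log2 differences of 0.13, −0.08, −0.0026 and 0.04, were not called either. TP63, the master factor of basal epithelia, was listed at 0 to 0.0100 FPKM, and KRT14, a basal keratin, at 0 to 0.05 FPKM. The parts of these factors in the keratin differences were not tested.

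Most of the cornified envelope list could not be tested: of 22 genes 13 had no row, 6 were below the filter and 3 were tested. Some genes listed at 0 in every library do have a row, so a missing row was not read as 0. Only SFN (14-3-3 sigma), which binds keratins such as KRT17, passed the test. It measured 85.1, 84.4 and 89.7 FPKM in siDYRK2 libraries, against 139, 139.8 and 132 FPKM in scramble libraries (log2 difference −0.66, limma adjusted p = 2.9e-05). CNFN (cornifelin) and FLG (filaggrin) were low, at 1.27 to 1.86 FPKM and 1.28 to 1.48 FPKM over the 6 libraries, and did not pass the test.

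**Figure D5:**
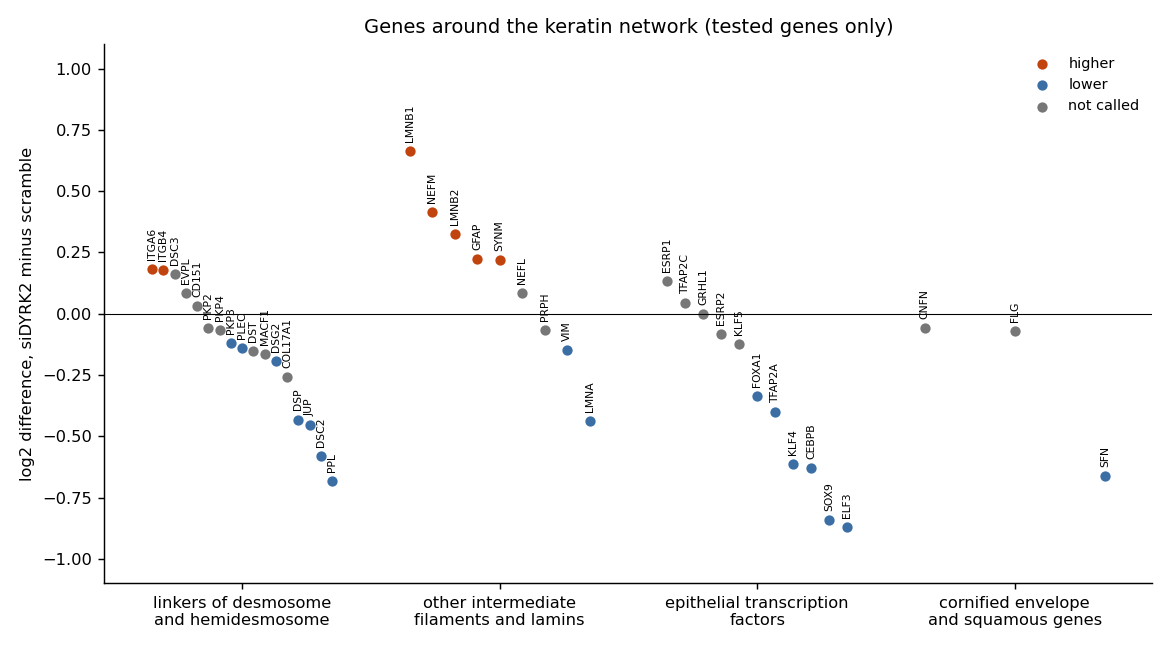
Log2 difference, siDYRK2 minus scramble (y), of each tested gene in 4 lists around the keratin network (x), ordered by size within its list and coloured by limma call. The factors ELF3 and SOX9 lie lowest, followed by PPL and SFN, and LMNB1 lies highest at 0.66.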

How the data were processed

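Total RNA of 6 HK-2 libraries, 3 with siDYRK2 and 3 with a scramble siRNA as the labels state, was sequenced by Illumina, per the labels. HISAT2, StringTie and GRCh38 are named in the submitters' processing notes without versions; the sources used here do not state annotation, strand use or read length. Deposited values are FPKM, computed by the authors per library with 2 decimals; columns of samples outside the series numbered 0. For low values of 4283 short genes with 1 transcript, many candidate sizes of 1 read were tried. The best gave 28.0% to 30.5% within 0.1 of a whole number of reads. Chance gives 20% for 1 fixed size, and more for the best of many. No counts were therefore recovered, the depth is unknown and no counting interval is given.

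Genes averaging 0.5 FPKM or more were tested with limma 3.58.1 (R 4.3.3) on log2(FPKM + 0.5), with a mean-variance trend, no covariate and Benjamini-Hochberg adjustment over 15121 genes. The code of the fit was run on simulated independent values with known shifts, which cannot address variation shared between libraries. Fold values are ratios of mean FPKM, and log2 differences are siDYRK2 minus scramble. Alternatives were 2 other pseudocounts, 2 other filters, 3 other scalings, no trend, a replicate block and leaving out each library. Named genes were DYRK2, the members and, of each list, up to 6 genes by level and up to 6 called genes by difference; others named were chosen after their values were seen. The members and lists were chosen with earlier results of these data known. Positions and transcripts came from GENCODE v29; the transcript with the best APPRIS principal rank, then the longest coding sequence, stood for a gene, and its 100-base windows were searched on both strands in all transcripts. The sequences of KRT8 and its pseudogenes are not reported here.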

Additional observations from a re-analysis of the deposited data

How the results depend on the processing

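The rise of KRT7 and KRT81 and the fall of KRT18 and KRT19 kept their direction and their call under every alternative in which the gene was tested; KRT81 lies below a filter of 2 FPKM, which left 1 member higher. KRT8 and KRT80 were not called under any alternative, with log2 differences from 0.0099 to 0.048 and from −0.052 to −0.0034. Without a filter KRT15 was called lower, which made 3 members lower, where 2322 of 32812 genes were lower. Over 40 named genes, 51 of the alternative results lost a call, 2 gained one and 3 changed sign. KRT8P3, at 0.02, ranged from −0.073 (without siDYRK2 replicate 2) to 0.088 with 1 library left out and was −0.045 without scramble replicate 3. CNFN, at −0.06, ranged from −0.14 to 0.063 (without scramble replicate 2). The numbers higher among all genes ranged from 2332 to 2728 with 1 library left out, against 3079, and lower from 2099 to 2367, against 2714. Deviations from the group means correlated between libraries of the same number at −0.088 to 0.024, and 2 of 6 correlated best with their own number, so the numbers were not taken as pairs. With the replicate block 2495 genes were higher and 2321 lower, 2 members each way, 0 keratin pseudogenes higher, and 2 other intermediate filaments higher and 1 lower.

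Other counts that moved were small. Of other keratins, 1 was higher without a filter and 1 without the trend (KRT86 in the second), and 1 was lower at a filter of 2 FPKM and 1 to 2 with a library left out. Of pseudogenes, 0 were higher without a filter or at 2 FPKM and 0 to 1 with a library left out, and 3 were lower without a filter. Of the anchors, 1 to 2 were higher and 5 to 7 lower with a library left out. Of other intermediate filaments, 2 were higher without a filter, 3 at 2 FPKM and 2 to 3 with a library left out; 1 was lower without a filter, under each of the 3 other scalings and without the trend, and 1 to 2 with a library left out. The cause was not tested. Ratios of KRT6A to KRT17 and of KRT5 to KRT15 were not run, because these genes are listed at or near 0.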
